A study of Mus musculus with 2 samples.

Results

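Potassium channel genes were taken as all mm10 autosomal protein-coding genes whose symbol starts with Kcn, which gave 92 of 19962 autosomal protein-coding genes with a known strand. Of 98 Kcn symbols, 94 were protein-coding, and 2 of these lay on chromosome X and were left out. By symbol the 92 members were 39 voltage-gated (Kv) pore subunit genes, 16 auxiliary subunit genes, 15 inward rectifier genes, 14 K2P genes, and 8 genes of calcium- or sodium-activated channels and their relatives. TCF12 binding was profiled in CH12.LX, a mouse B-cell lymphoma line of strain B10.H-2aH-4bp/Wts, by ChIP-seq, in which DNA bound by the protein is pulled down with an antibody and sequenced. The single group held 2 biological replicates, registered as separate samples of 1 line from 1 donor for which the labels name no treatment, with donor age unknown. There was no second condition and RNA was not measured, so genes are compared with genes and expression of the channels in these cells is not known. A gene's window ran from 10 kb upstream of its annotated 5' end to its 3' end, and a summit, the highest point of a peak, within 1 kb of the 5' end was kept apart as a promoter summit.

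Potassium channels let potassium leave the cell and so set how negative the membrane potential is. The family is best known from neurons, muscle and kidney. In lymphocytes, Kv1.3 (Kcna3) and the calcium-activated KCa3.1 (Kcnn4) keep the membrane negative, which sustains calcium entry through STIM and ORAI proteins and thereby calcineurin and NFAT signalling. TCF12 (HEB), a basic helix-loop-helix factor of the E protein group, binds E-boxes (CANNTG), of which CAGCTG and CACCTG are called the main E-boxes here.

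Sequences under 8 of the members' peaks are printed as examples, with and without a main E-box. They were picked after their values were seen, and each is the mm9 sequence (NCBIM37) from 50 bp before to 50 bp after the summit of that gene's strongest mm9 peak, written 5' to 3' on the plus strand. Capitals mark the main E-boxes, and a CACCTG on the minus strand reads CAGGTG here. Most of the 8 windows hold a main E-box, against 28 of all 68 member mm9 peaks (41.2%), so they do not stand for the family.
Kcnn4 (chr7:25154764-25154864, plus strand): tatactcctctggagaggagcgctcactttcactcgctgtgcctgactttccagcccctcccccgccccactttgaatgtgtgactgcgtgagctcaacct
Kcnh2 (chr5:23858302-23858402, plus strand): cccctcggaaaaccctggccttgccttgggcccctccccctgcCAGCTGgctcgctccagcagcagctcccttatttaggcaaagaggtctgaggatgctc
Kcnq5 (chr1:21950608-21950708, plus strand): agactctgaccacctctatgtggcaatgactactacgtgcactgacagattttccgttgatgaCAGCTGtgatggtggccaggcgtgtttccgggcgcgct
Kcnh5 (chr12:76172206-76172306, plus strand): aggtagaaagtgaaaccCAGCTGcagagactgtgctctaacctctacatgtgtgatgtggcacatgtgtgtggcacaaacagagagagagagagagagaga
Kcnmb3 (chr3:32391146-32391246, plus strand): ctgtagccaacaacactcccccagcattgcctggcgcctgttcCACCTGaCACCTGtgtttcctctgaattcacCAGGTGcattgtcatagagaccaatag
Kcnk3 (chr5:30896745-30896845, plus strand): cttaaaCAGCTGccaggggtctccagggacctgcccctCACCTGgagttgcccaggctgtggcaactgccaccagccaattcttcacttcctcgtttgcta
Kcnj1 (chr9:32176546-32176646, plus strand): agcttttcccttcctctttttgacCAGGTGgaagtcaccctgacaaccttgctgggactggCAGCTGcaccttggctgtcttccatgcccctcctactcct
Kcnj15 (chr16:95497363-95497463, plus strand): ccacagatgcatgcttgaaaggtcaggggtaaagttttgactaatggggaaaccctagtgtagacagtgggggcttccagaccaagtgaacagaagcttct
The Kcnn4 and Kcnh2 windows lie at promoters, 468 bp and 930 bp upstream of the mm9 5' ends. The Kcnmb3 window, with 3 main E-boxes, lies 305 bp upstream of its mm9 5' end, which is an internal start on mm10. Those of Kcnq5, Kcnh5, Kcnk3 and Kcnj15 are intronic and that of Kcnj1 is 3.41 kb upstream of the gene. The Kcnn4 window holds no CANNTG at all, and the Kcnj15 window, under the peak with the highest signal in the family, holds 2 CANNTG but no main E-box.

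TCF12 summits were found in the windows of part of the family, and mostly away from the channel genes' own promoters. At least 1 optimal summit, from the peaks kept after the authors' irreproducible discovery rate (IDR) step, lay in the window of 46 of the 92 members, which is 50% (95% Wilson interval 40.0 to 60.0), against 58.6% of all autosomal protein-coding genes. Promoter summits were found at 11 members, or 12% (6.81 to 20.2), against 41.6% of all genes. Summits outside the promoter were found at 45 members, or 48.9% (38.9 to 59.0), against 37% of all genes. The interval for promoter summits lies below the share of all genes, the one for summits elsewhere lies above it, and the one for any summit holds it. For any summit this changed with the setting: at a stricter IDR of 0.01, 36 members (39.1%, 29.8 to 49.3) had one, against 52.3% of all genes, and on the conservative list 42 (45.7%, 35.9 to 55.8), against 58.4%, so both intervals lie below the share of all genes. All intervals cover counting error only and treat genes as independent, though some members are neighbours.

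These shares differ with gene length, so they were set side by side within bands of gene span. Of 34 members under 20 kb, 29.4% (16.8 to 46.2) had a summit in the window, against 48.7% of all genes of that length. Of 35 members of 20 kb to under 100 kb, the share was 65.7% (49.2 to 79.2), against 70.6%, and of 23 members of 100 kb or more it was 56.5% (36.8 to 74.4), against 67.7%. Promoter summits were fewer among the members in every band, at 8.82%, 17.1% and 8.70% from short to long, against 37.2%, 50.8% and 33.7% of all genes. Summits outside the promoter were found at 29.4%, 65.7% and 52.2% of the members, against 27.3%, 44.8% and 58.5% of all genes, so only the middle band lies above the background by more than its counting interval.

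**Figure D1:**
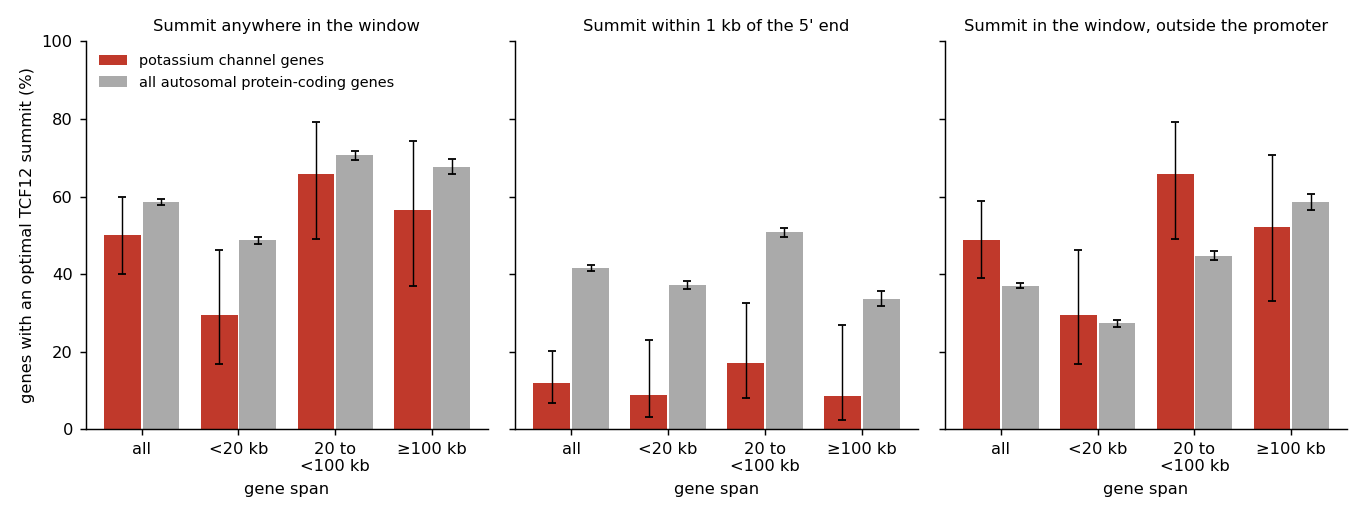
Share of genes (%, y axis) with an optimal TCF12 summit anywhere in the window, within 1 kb of the 5' end, and in the window outside the promoter, for potassium channel genes (red) and all autosomal protein-coding genes (grey), over all genes and by gene span (x axis). Error bars are 95% Wilson intervals for counting error, and in the middle panel the red bar is under the grey bar in every band, with 12% against 41.6% over all spans.

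The members' windows held 128 distinct summits, of which 13 were at promoters, 23 upstream and 92 in gene bodies. Some lie in overlapping peaks, and 118 peaks remained once these were merged, so counts per gene can include neighbouring summits of 1 region. Unmerged, the 128 summits came to 11.1 per Mb of the 11.6 Mb covered, against 23.9 per Mb over the windows of all genes. Away from the annotated 5' end of any protein-coding gene, the density was 9.43 per Mb in the members' windows, against 14.7 per Mb in all windows. The signal, the peak caller's own value as the authors deposited it, had a median of 30.1 over the members' summits, against 35.1 over all autosomal summits. At promoters the medians were 31.7 for the members and 43.9 for all, and elsewhere 30.0 and 32.4. Signals of 100 or more were found at 2 member summits (1.56%), against 9.09% of all autosomal summits, and 84.4% of the members' signals were below 50, against 68.2% of all. Of the 46 members with a summit, 15 had 1 summit, 18 had 2 or 3 and 13 had 4 or more. The strongest signal in a member's window had a median of 37.9 and ranged from 17.9 at Kcnab1 to 231 at Kcnj15, and it reached 50 or more in 17 members. By class its median was 34.6 over 18 Kv genes, 36.4 over 9 auxiliary genes, 36.5 over 8 inward rectifier genes, 57.0 over 6 K2P genes and 50.4 over 5 genes of KCa and Slo channels, with wide overlap between the classes.

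**Figure D2:**
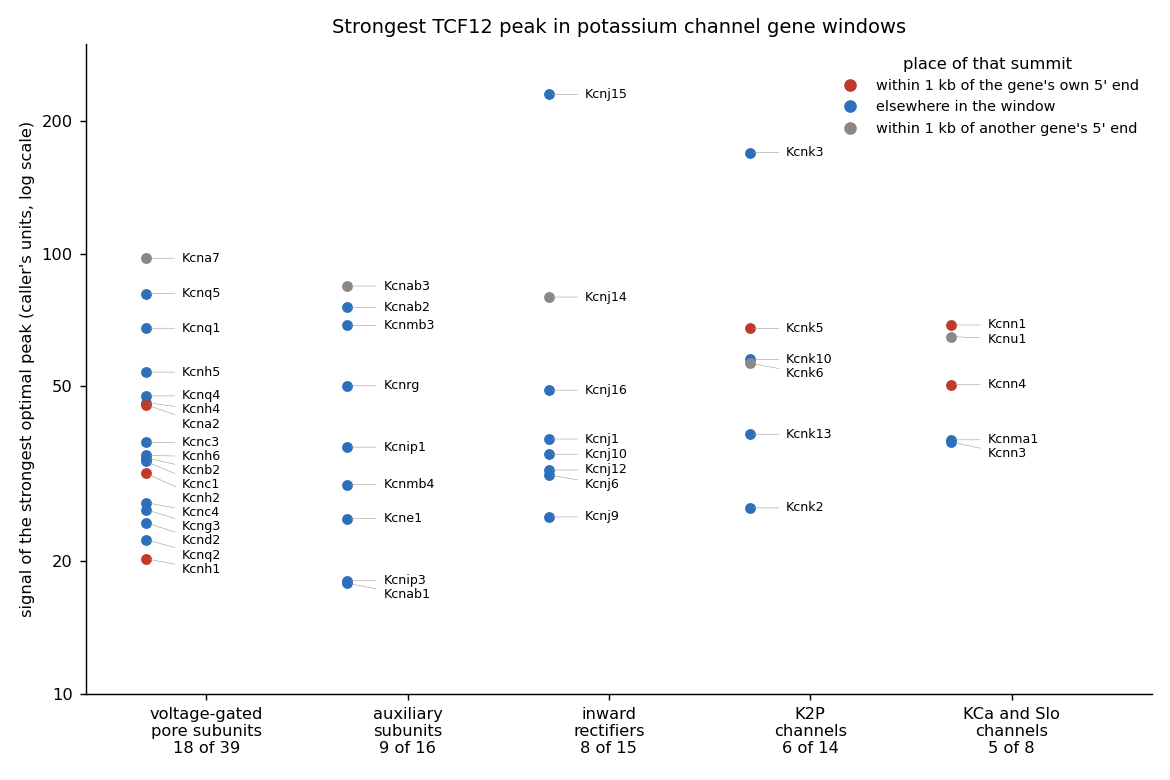
Signal of the strongest optimal TCF12 peak in potassium channel gene windows (y axis, caller's units, log scale) for 45 of the 46 genes with a summit, by channel class (x axis, with the number of genes with a summit of all in the class). Red points lie within 1 kb of the gene's own 5' end, blue points elsewhere in the window and grey points within 1 kb of another gene's 5' end, which for Kcnu1 is also within 1 kb of its own; Kcnj15 and Kcnk3 alone pass 100.

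The channels that lymphocytes are known for differed from each other. Kcnn4, which encodes KCa3.1, had a promoter summit 31 bp upstream of its 5' end on mm10 (chr7:24369603-24369986), with a pooled signal of 50.4, 34.5 in replicate 1 and 12.5 in replicate 2. Of the optimal peaks on the autosomes and chromosome X, 31.1% were stronger. A start listed in the RefSeq promoter table puts the same summit 468 bp upstream. Inside the 15.4 kb gene lay 3 more summits, 3.95, 10.3 and 13.1 kb downstream, with signals of 31.2, 21.2 and 31.8. All 4 were higher in replicate 1, by 1.58 to 3.62 times.

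Kcna3, which encodes Kv1.3 and spans 1968 bp, had no optimal summit in its window. The nearest one, with a signal of 34.1, lay 2.12 kb downstream of the 5' end and thus 157 bp past the annotated 3' end. In the authors' relaxed list of pooled peaks, which reaches deep into background, the strongest peak in the window had a signal of 16.0, 660 bp downstream of the 5' end, and ranked 43706 of 300000. In replicate 1 the strongest was 11.1, 671 bp downstream, and in replicate 2 it was 5.66, 113 bp upstream. The replicates' ranks were 42641 and 55395, so in neither was the peak among the 35530 strongest, and the places differ. On mm9 the nearest peaks lay 39.8 kb upstream and 40.0 kb downstream.

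The class of KCa and Slo channels is named for calcium or sodium activation, although Kcnu1 responds to pH. Of its 8 genes, 5 (62.5%) had a summit, against 58.6% of all genes. A promoter summit was found at 3 (37.5%), against 41.6%, so both shares are near those of all genes. Kcnn1, the gene of the small-conductance channel SK1, had a promoter summit 8 bp upstream with a signal of 68.9, 46.8 in replicate 1 and 26.7 in replicate 2. Its place depends on the annotation, as the start in the RefSeq promoter table lies 2.44 kb away. Kcnu1, the sperm channel Slo3, had a summit 956 bp upstream with a signal of 64.9, but the 5' end of Ash2l, a subunit of histone H3 lysine methyltransferase complexes, lies 23 bp from it. Kcnma1, which encodes the large-conductance BK channel, had 3 summits, 378 kb to 410.3 kb into the gene, the strongest with a signal of 37.8. Kcnn3 had a single summit with a signal of 37.4, 66.0 kb into the gene.

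Of the 39 Kv pore subunit genes, 18 (46.2%) had a summit, against 58.6% of all genes. Promoter summits were found at 6 (15.4%), against 41.6%. Among these, the strongest promoter summits of Kcna2, Kcnh2, Kcna7, Kcnh1 and Kcnh4 had signals from 17.9 at Kcnh4, which encodes an ELK channel, to 45.5 at Kcna2, which encodes the axonal channel Kv1.2. At Kcna2 the summit lay 734 bp upstream, with 36.7 in replicate 1 and 8.27 in replicate 2. Several of these places depend on the annotation, since the nearest start in the RefSeq promoter table lies 11.4 kb from the Kcna2 summit, 1.52 kb from that of Kcnh1, and 22.9 kb and 22.0 kb from those of Kcnh2. Kcnh2, the ERG channel gene of the heart's repolarising current, had 2 promoter summits, 850 bp upstream with a signal of 31.7 and 46 bp downstream with 20.2. The first of these had 25.4 in replicate 1 and 3.29 in replicate 2. Kcnh1, the EAG channel gene, had a summit 115 bp downstream with a signal of 20.3, 14.4 in replicate 1 and 4.95 in replicate 2. At the summits of these 5 genes except that of Kcnh4 (11.3 in replicate 1 and 9.45 in replicate 2), the value of replicate 1 was over 1.5 times that of replicate 2.

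Summits of the Kv genes outside promoters reached higher signals. Kcnq5, whose product Kv7.5 carries the neuronal M current, had 9 summits, the most of any member, spread from 1.27 kb to 536.8 kb into the gene. The strongest had a signal of 81.2, 51.9 in replicate 1 and 28.3 in replicate 2, and lay 2.08 kb into the gene. Its other 8 signals ranged from 14.6 to 34.2. Kcnq1, which with Kcne1 forms the slow delayed rectifier of the heart, had 1 summit with a signal of 67.8, 189.7 kb downstream. The closest 5' end of a protein-coding gene, at 164.5 kb, belonged to Cdkn1c, and starts of non-coding genes were not looked at. Kcnh5, which encodes an EAG channel of neurons, had a summit 106 kb into the gene with a signal of 53.9, and there replicate 2 was the higher, with 41.3, against 16.4 in replicate 1. Kcna7, which encodes Kv1.7, carried the highest value of the Kv genes, 97.8, but this summit lay 242 bp upstream of Snrnp70, a gene of the U1 splicing particle. The summit at the Kcna7 promoter itself, 397 bp downstream, had 26.9, from 16.1 in replicate 1 and 8.89 in replicate 2.

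Auxiliary subunit genes had summits in 9 of 16 windows (56.2%), near the 58.6% of all genes. None had one at the annotated 5' end, against 41.6% of all genes. Kcnmb3, which encodes a beta subunit of BK channels, had 8 summits. Its strongest pair lay 10.6 kb and 11.8 kb into the gene with signals of 68.8 and 61.9, at 306 bp upstream and 860 bp downstream of a start in the RefSeq promoter table. The first had 46.8 in replicate 1 and 22.0 in replicate 2. A pair upstream, with 51.9 and 43.3, lay within 1 kb of the 5' end of Zfp639, a zinc finger gene. Kcnab2, whose product is a beta subunit of Kv1 channels, was likewise marked at an internal start, with a signal of 75.6 at 52 bp from it and 28.7 kb from the outermost 5' end. Kcnab3, another beta subunit gene, had 84.5 in its upstream window, where the summit lay 122 bp from the 5' end of the centrosome gene Cntrob, and 48.9 in its own body, 6.04 kb downstream.

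Among the 14 K2P genes, which encode the background or leak channels, 6 (42.9%) had a summit, against 58.6% of all genes. A promoter summit was found at 2 (14.3%), against 41.6%. Kcnk5, which encodes the pH-sensitive TASK-2, had a summit 24 bp upstream with a signal of 67.7, 38.7 in replicate 1 and 30.9 in replicate 2, and 5 more inside the gene from 11.0 to 50.4. Kcnk10, the TREK-2 gene, had 45.8 at its promoter, 74 bp downstream, with 40.9 in replicate 1 and 13.7 in replicate 2. A stronger summit of 57.6 lay 3099 bp downstream, 13 bp from another listed start. Kcnk3, which encodes the acid-sensitive TASK-1, held the second highest signal of the family, 169.8, 6.25 kb into the gene (chr5:30594334-30594437, mm10), with 105 in replicate 1 and 66.3 in replicate 2. Of the optimal peaks on the autosomes and chromosome X, 2.18% were stronger. The Kcnk3 window printed above holds both main E-boxes, as does that of Kcnj1. Kcnk3 had 3 further summits, with signals from 27.5 to 49.3. Kcnk6, which encodes TWIK-2, had a single summit with a signal of 56.5, 5.84 kb upstream and 764 bp from the 5' end of Yif1b, a gene of membrane traffic.

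Of the 15 inward rectifier genes, 8 (53.3%) had a summit, against 58.6% of all genes. None had one at the 5' end, against 41.6% of all genes. Kcnj15, which encodes Kir4.2, held the highest signal of all members, 231, 18.3 kb downstream (chr16:95275685-95275903, mm10), a place that is intronic on mm9. Replicate 1 had 127 and replicate 2 had 101 there, and 0.703% of optimal peaks on the autosomes and chromosome X were stronger. It had 5 more summits between 5.62 and 35.5 kb downstream, with signals from 25.3 to 49.2. Kcnj1, which encodes the kidney channel ROMK, had 6 summits of lower and similar signal, from 20.4 to 38.0, on both sides of its 5' end, the strongest 3.40 kb upstream with 20.1 in replicate 1 and 16.4 in replicate 2. Kcnj14, which encodes Kir2.4, had 79.8 from a summit 6.05 kb upstream that lies 195 bp from the 5' end of Grwd1, a ribosome biogenesis gene.

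**Figure D3:**
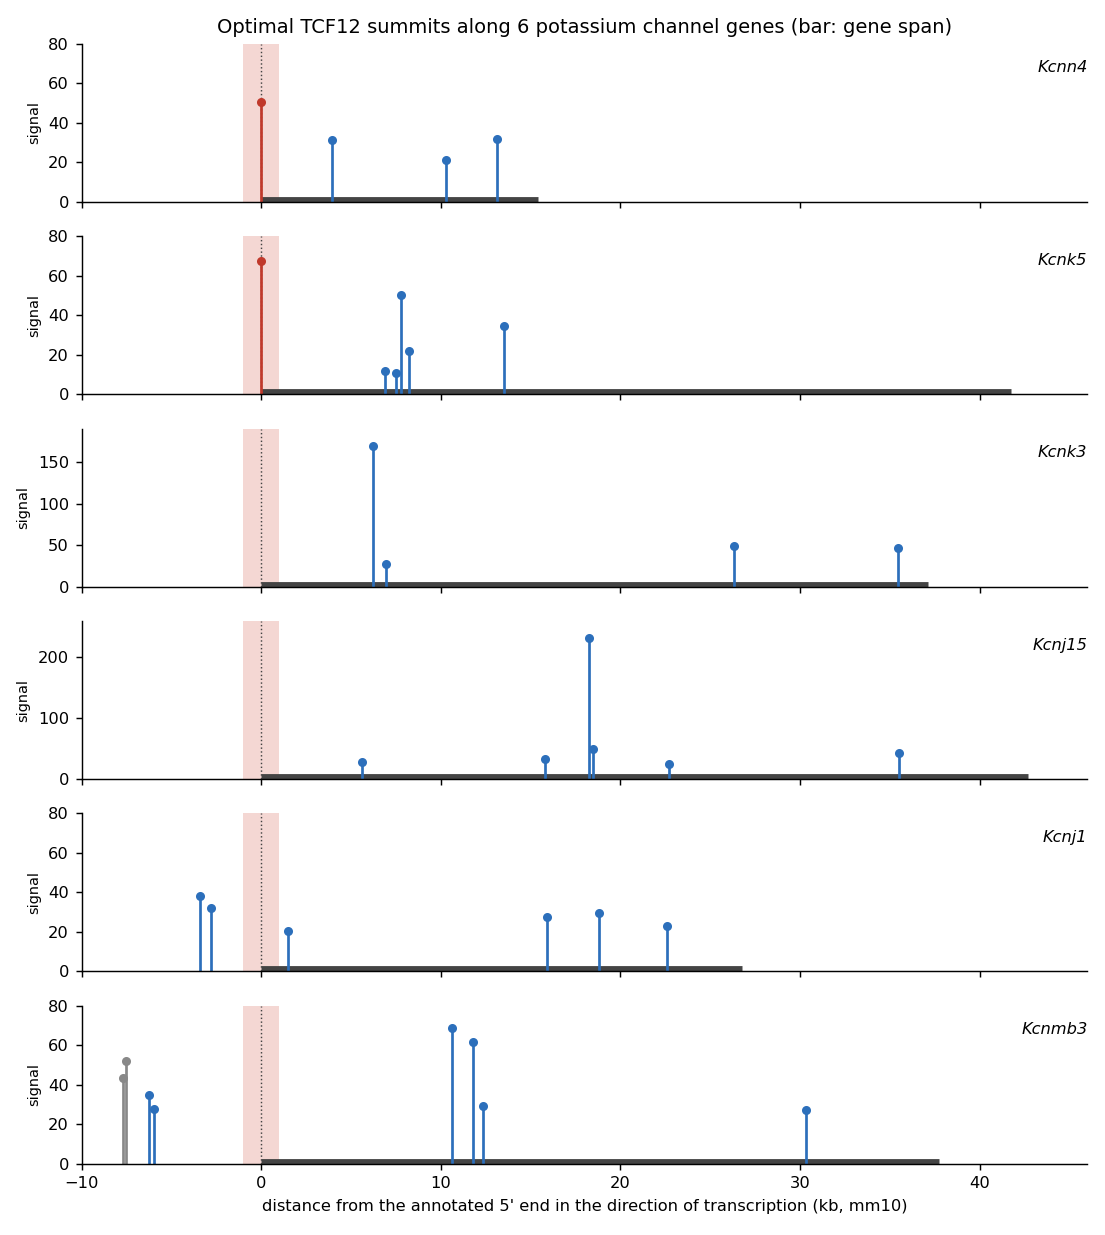
Optimal TCF12 summits along 6 potassium channel genes, with distance from the annotated mm10 5' end in the direction of transcription (x axis, kb) and signal (y axis, caller's units, scale differs between panels). The black bar is the gene span, the red band the promoter of 1 kb to either side, red stems promoter summits, blue stems other summits and grey stems summits within 1 kb of another gene's 5' end; Kcnn4 and Kcnk5 have a promoter summit and the other 4 genes none.

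Some of these summits lay at neighbouring genes or at alternative starts. The strongest summit of 5 members, Kcna7, Kcnab3, Kcnj14, Kcnk6 and Kcnu1, lay within 1 kb of another gene's 5' end, and Kcnj14 and Kcnk6 had no other summit. Without summits that close to a non-member's 5' end, 44 members (47.8%) had a summit, against 56.7% of all genes. Of the 115 summits outside the members' promoters, 34 were nearest to the 5' end of another gene and 6 lay within 1 kb of one. Another 8 lay within 1 kb of a start listed in the RefSeq promoter table but not of the 5' end, in Kcnab1, Kcnab2, Kcnk10, Kcnk13, Kcnmb3 and Kcnq5. With these starts counted, 16 members had a summit at a start, against 45% of all genes. Of the 11 members with a promoter summit, 9 had a listed start, and in 5 the summit lay within 1 kb of it.

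Members without an optimal summit in the window were not only short genes. The longest was Kcnip4, at 1136 kb, which encodes an interacting protein of Kv4 channels. Next by span came Kcnh7 (491 kb), which encodes an ERG channel, Kcnn2 (417 kb), the gene of SK2, Kcnh8 (376 kb), Kcnt2 (368 kb), a sodium-activated channel gene, and Kcnq3 (300.3 kb), whose product joins others in the M current. Kcnmb2, Kcnd3, Kcnc2 and Kcnj3 followed, with spans from 186 to 298 kb. Most of these are genes known for neurons, but so are members with summits such as Kcnq5, Kcnh5 and Kcna2. The shares of neuronal genes with and without a summit were not counted. Of all 23 members of 100 kb or more, 10 held no summit, against 722 of all 2236 genes of that span. The members' share with a summit, 56.5% (36.8 to 74.4), has an interval that holds the 67.7% of all such genes.

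The sets of members found in the replicates overlapped in part. Among the 35530 strongest peaks of each, 45 members had a summit in replicate 1, 47 in replicate 2 and 40 (43.5%) in both. For all genes the counts were 11871, 11848 and 11113, so the members' sets overlapped less. The shares of all genes were 59.5%, 59.4% and 55.7%. The members' intervals, 38.9 to 59.0 in replicate 1 and 33.8 to 53.7 in both, lie below those shares, while that of replicate 2, 41.0 to 61.1, holds it. The summits of a member counted in both need not lie at the same place. With 50% reciprocal overlap at the same optimal peak required in both replicates, 35 members remained, and this was not counted over all genes. Of the 128 optimal summits, 124 had a peak in both replicates' relaxed lists, and 105 of these (84.7%) had a higher signal in replicate 1, against 83.1% of all autosomal peaks. The median ratio of replicate 1 to replicate 2 was 1.75 at member summits, with quartiles of 1.21 and 2.78, against a median of 1.64 for all. The offset is thus general in these lists, and with no stated scaling of the signal it was not read as a difference in binding. The IDR step keeps peaks whose ranks repeat, so the counts at optimal peaks are no independent measure of the replicates. The 35530 strongest peaks of each replicate came from its relaxed list, before that step.

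**Figure D4:**
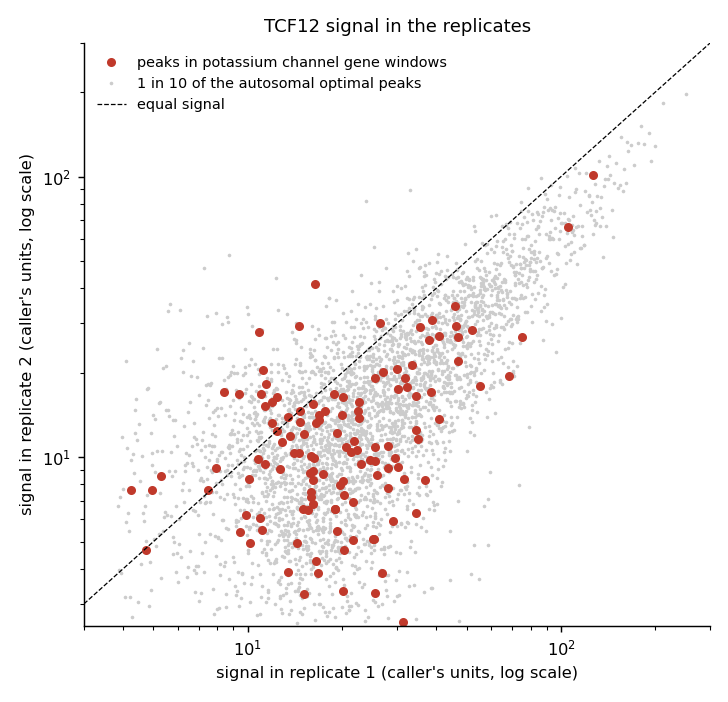
Signal in replicate 1 (x axis) and replicate 2 (y axis), both in the caller's units on log scales, for the 124 peaks in potassium channel gene windows found in both (red) and for 1 in 10 of the autosomal optimal peaks (grey). The dashed line marks equal signal; 105 of the red points lie below it, and the pair at the upper right are those of Kcnj15 and Kcnk3.

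Main E-boxes were counted on the mm9 peaks, whose genome sequence was at hand. Of the 92 members, 37 (40.2%) had an mm9 summit in the window, against 50.1% of all mm9 genes, and the 68 peaks fell into 40 in introns, 8 in exons, 9 at promoters and 11 upstream. Of the 68, 28 held CAGCTG or CACCTG on either strand no more than 50 bp from their summit, or 41.2% (30.3 to 53.0), against 31.1% of all autosomal mm9 peaks, a share inside that interval. Windows 300 bp to either side held one in 19.1% of cases at the members and 12.2% at all peaks. Peaks near and away from 5' ends were then taken apart. Away from any 5' end, 25 of 54 member peaks (46.3%, 33.7 to 59.4) held a main E-box, against 39.6% of all such peaks, whose share lies within the members' interval. Within 25 bp of the summit the order turned, with 20.4% of the member peaks away from 5' ends, against 23.9% of all such peaks. Near a 5' end, within 50 bp, it was 3 of 14 (21.4%, 7.57 to 47.6), against 14.5%. In windows 300 bp to either side of these, the shares were 28.6% at the members and 11.7% at all such peaks. Away from 5' ends those flank shares were 16.7% and 12.4%. CAGCTG and CACCTG were each found in 16 of the 68 member peaks (23.5%), against 15.5% and 19.2% of all peaks.

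**Figure D5:**
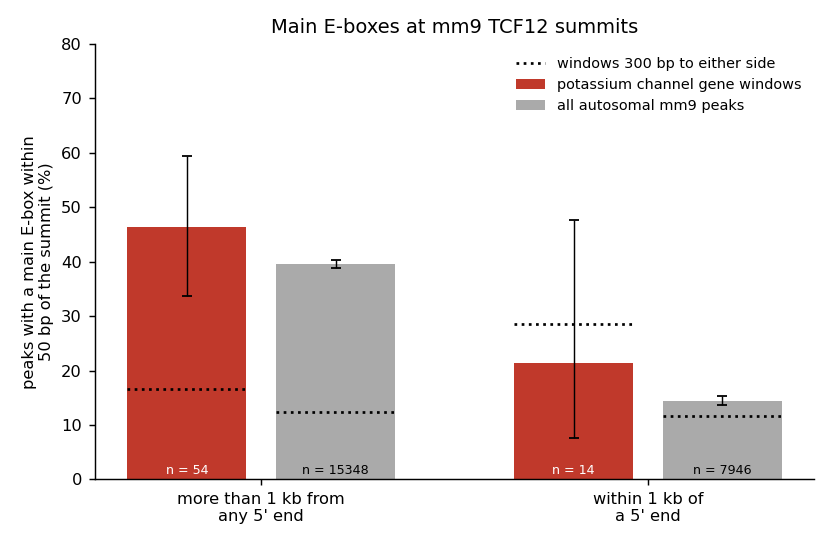
Share of mm9 TCF12 peaks (%, y axis) with a main E-box within 50 bp of the summit, for peaks in potassium channel gene windows (red) and all autosomal mm9 peaks (grey), away from and within 1 kb of a 5' end (x axis). Error bars are 95% Wilson intervals for counting error and dotted lines the mean share in windows 300 bp to either side. Away from 5' ends both bars, 46.3% and 39.6%, stand above their dotted lines. Near a 5' end the red bar, 21.4% of only 14 peaks, stands below its line at 28.6%, and the grey bar, 14.5%, above its line at 11.7%.

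Motifs of other factors of B cells were sparse in the same 101 bp windows, searched on both strands. The octamer ATGCAAAT was found in 3 of 68 (4.41%), against 2.26% of all mm9 peaks. GAGGAAGT of PU.1 was in 3 (4.41%), against 3.14%, CCGGAAGT of ETS factors in 1 (1.47%), against 2.94%, TGTGGTT of RUNX in 3 (4.41%), against 4.73%, and TGANTCA of AP-1 in 4 (5.88%), against 7.66%. With counts of 1 to 4 none of these shares can be told from the background. The letters of the channels' own promoters were looked at in the RefSeq table, from 250 bases before to 50 after each start. A main E-box stood in 40 of 93 promoters of members (43.0%), against 32.3% of all 20085 autosomal promoters of this length. Of the 68 members with an entry, 31 had at least 1 such promoter. Since some of the 93 are starts of the same gene, they are not independent, and no interval was computed.

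The sodium and calcium channel genes, also best known from excitable cells, gave a promoter share near that of the potassium channel genes. Their share with any summit was higher over all spans, but not in every band of gene span. A summit lay in 50% of potassium channel windows, against 24 of 39 (61.5%, 45.9 to 75.1) for genes with symbols starting Scn or Cacn, whose share lies just above the potassium channels' interval of 40.0 to 60.0, while the intervals overlap. Under 20 kb it was 29.4% of 34 potassium channel genes, against 66.7% of only 6 Scn and Cacn genes. At 20 kb to under 100 kb it was 65.7%, against 61.5%, and at 100 kb or more 56.5%, against 60%. Outside promoters, over all spans, the shares were 48.9% and 61.5%. Promoter summits stood at 12% of the potassium channel genes, against 4 of 39 (10.3%, 4.06 to 23.6), and each share lies within the other's interval. The density was 11.1 summits per Mb at potassium channels, against 12.2, with median signals of 30.1 and 32.1. A few sodium or calcium channel genes had stronger peaks than most members, led by Cacna1b (231), Cacna1s (157) and Cacna1e (134, with 18 summits in the window), all pore subunits of voltage-gated calcium channels, with 131 each at Cacna1i, Cacna1d and Cacnb1. Cacna2d3, Cacna2d2, Scn1a and Scn9a were among the 15 without a summit.

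The genes of calcium entry that lymphocyte potassium channels serve stood at the other end. The list held 25 genes, mostly of store-operated entry, calcineurin and NFAT signalling and regulators of KCa3.1, and also the channel genes Hvcn1, Trpm4 and Trpm7. All 25 had a summit in the window. Promoter summits stood at 12% of the potassium channel genes, against 23 of these 25 (92%, 75.03 to 97.78) and 41.6% of all genes. The potassium channel windows held 11.1 summits per Mb, against 65.4 in those of the list, while the median signals were 30.1 and 32.4. Strong peaks of the list lay at Ppp3ca (281), a calcineurin catalytic subunit gene, the inositol trisphosphate receptor gene Itpr1 (266) and Nfatc1 (241). Pik3c2b, a lipid kinase gene, and Itpr3 followed with 155 and 133. Nfatc2 and the calcium sensor gene Stim1 had no promoter summit. Many of these genes are expressed in many cell types or in B cells, the list was written with that knowledge, and the role of expression in the difference was not tested.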

How the data were processed

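Per the deposited file descriptions, the authors called peaks with a control on each replicate and on both pooled, giving relaxed lists of 300000 peaks each on mm10, and derived an optimal list of 35848 and a conservative list of 35530 with the IDR step. A separate mm9 list holds 23575 peaks from both replicates. The signal of each peak is the caller's own value as deposited by the authors, with no stated scaling, and was used to describe and rank peaks. The score in the optimal and conservative lists is the scaled IDR score deposited by the authors, up to 1000. The aligner, the caller, their versions and the read depth are not stated in the sources used here, so no interval covers sequencing depth. P-values were not computed, because 2 replicates of 1 group allow no test.

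Gene spans came from RefSeq (GRCm38.p6) and strand from its promoter table for 16457 genes, otherwise from GENCODE vM1 by symbol. The sources differed for 37 of 13962 genes with both, none of them a member. Nearest and other genes' 5' ends are those of protein-coding genes throughout. Starts of non-coding genes were not considered, so a summit away from 5' ends may lie at one. Sequence, exons and E-boxes were read on mm9 (NCBIM37, vM1), promoter sequence from RefSeq (mm10), where 68 members had an entry, and no coordinate was converted between builds. Replicates were compared over their 35530 strongest peaks, and a replicate's signal at an optimal peak came from the relaxed peak overlapping it by at least 1 bp whose summit was nearest. Intervals printed with shares are 95% Wilson intervals.

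The members and lists were chosen with earlier results of these data known. The genes named were Kcna3 and Kcnn4, all members with a promoter summit, the 15 with the strongest summits, the 5 with the most summits, the 10 longest without one, and the leading genes of the other lists; Kcnma1, Kcnn3 and the remaining members with listed starts were added after their values were seen. A few items are not reported here. Assignment of summits, distances and motif search were tested on simulated data. Python 3.11.15 with pandas 2.3.3, numpy 2.4.6, scipy 1.17.1 and matplotlib 3.10.9 was used. Alternatives are given in the closing section.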

Additional observations from a re-analysis of the deposited data

How the results depend on the processing

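Under 17 alternative settings 49 values were recomputed, and 44 stayed within 1.5 times the reported count, or within the spread or interval of the reported value. Among these, merging overlapping peaks left all counts of genes as they were, and moving the flanks does not touch the summit share; it gave a members' flank share of 12.5% at 500 bp, against 19.1% at 300 bp. Members with any summit ranged from 36 to 47. Their share was 39.1% with each summit given to its nearest 5' end alone (51.2% of all genes) and 45.7% with 5 kb upstream (56.3%), both with intervals below the share of all genes, while those on mm9 and without summits near other genes' 5' ends hold it. Members with a promoter summit ranged from 8, at an IDR of 0.01 (8.70%, against 36.9%), to 16, with any listed start (17.4%, against 45%), and the interval lay below the share of all genes under every setting run for both. Summits outside the members' promoters fell to 70 at an IDR of 0.01 (scaled score of at least 830), and to 106 with overlapping peaks merged. The median signal of member summits was 11.4 to 21.1 in a single replicate, whose scale differs from that of the pooled data. Members with a summit in both replicates came to 23 with the 20000 strongest peaks, against 44.3% of all genes. Main E-boxes stood in 20.6% of member peaks within 25 bp of the summit, against 18.4% of all peaks. Calcium entry genes with a summit ranged from 24 to 25. Scn and Cacn genes with a summit ranged from 17, with each summit given to its nearest 5' end alone, to 26 in replicate 2 alone. Counting any listed start and leaving out summits near other genes' 5' ends were chosen after seeing the data. No paired analysis was possible because there is 1 group. An alternative for members with no known strand was not run, since all 92 had one. Read depth is unknown, so a missing summit, as at Kcna3, does not show that TCF12 is absent there.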
